A study of Caenorhabditis elegans with 12 samples.

Results

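The genes of the vacuolar ATPase and of autophagy were followed in whole Caenorhabditis elegans adults of 2 genotypes on 2 diets. The members were chosen by symbol alone: every gene named vha-, atg-, lgg- or epg- followed by a number, with unc-32, bec-1, unc-51, vps-34, lmp-1 and sqst-1. This gave 49 of the 46748 genes in the table, 21 for the vacuolar ATPase (V-ATPase) and 28 for autophagy, and all 49 passed the filter on low counts.

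The 4 groups had 3 poly(A) RNA libraries each, 12 in all, which the labels call biological replicates. They were wild type N2 and the mutant sek-1(km4), which carries a deletion allele in the gene of a MAP kinase kinase of the p38 pathway, each fed ad libitum (AL) or under dietary restriction (DR). Food was Escherichia coli OP50 arrested by cold and antibiotics, offered at optical density 3 (AL) or 0.1 (DR) to 10 to 20 worms a well at 20 °C. All 4 groups had FUdR at 100 mg/L, a drug that stops production of progeny. The diet began at adult day 3 and collection was at adult day 6. The labels do not say whether replicates came from separate cultures, so the p-values measure the spread between these libraries, which may be partly technical.

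The V-ATPase is a rotary proton pump that acidifies lysosomes, endosomes and, in this worm, the intestinal lumen. Its cytosolic V1 sector hydrolyses ATP and turns a membrane ring of the V0 sector, through which protons pass. Autophagy encloses cytoplasm in a double membrane that forms in ordered steps, from a starting kinase and a lipid kinase through membrane supply and the attachment of the ubiquitin-like protein Atg8 to lipid, and then fuses with the lysosome that the pump acidifies. Autophagy genes are required for the longer life of several long-lived worms, including worms under DR.

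Total counts per library ranged from 13673987 to 31675540, of which annotated ribosomal RNA took 30.7% to 47.8%, and 1 library stood apart. Replicate 3 of N2 on AL, the library with the fewest counts, correlated with the others of its group at r = 0.904 and 0.907 across genes, against at least 0.98 within every other group (genes are not independent replicates). Most members with short transcripts were high in it and most with long transcripts were low. Its level against the mean of replicates 1 and 2 had a median ratio of 1.44 for the 11 members with under 1 kb of exon, 0.719 for the 27 between 1 and 2.5 kb, and 0.323 for the 11 above 2.5 kb. The ratios ran from 0.166 for epg-5 to 2.19 for lgg-3. Counts of called members are therefore also given from a fit of the other 11 libraries, named the 11-library fit from here on. Over all genes tested, log2 levels were set against the mean of the groups other than N2 on AL. In this library their median was 1.06 in the shortest quartile of exon length and −0.905 in the longest. The other libraries numbered 3 leaned the same way by less. They had 0.166 and −0.191 in N2 on DR, 0.199 and −0.123 in the mutant on AL, and 0.146 and −0.00976 in the mutant on DR. The 11-library fit keeps these libraries. The sek-1 gene itself was read at 16.4 to 22.4 CPM (counts scaled to a common library total) in the mutant libraries and at 20.8 to 28.6 in the N2 libraries other than replicate 3 on AL (3.72). This count per gene did not separate the genotypes, and which exons its reads came from was not examined. It is no check of the allele or of the labels.

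**Figure D1:**
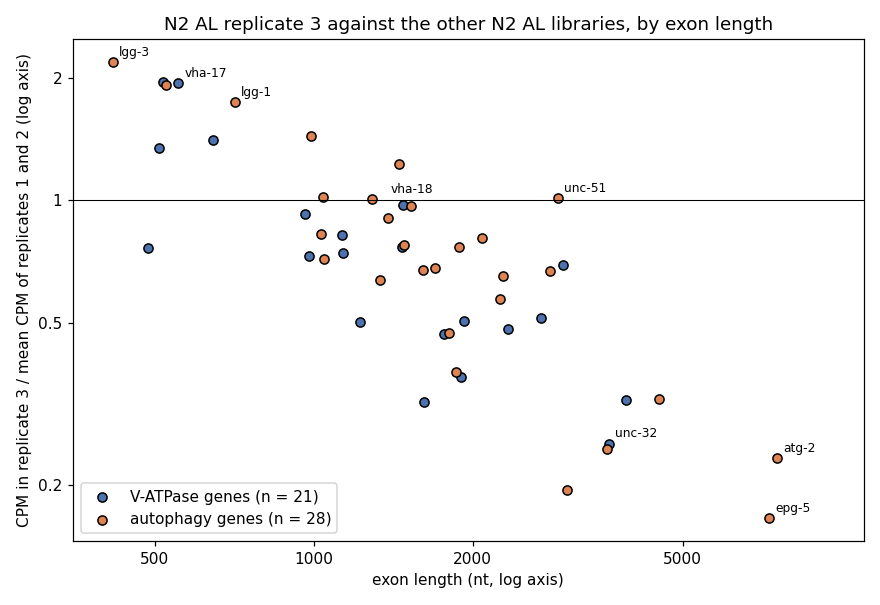
Level of each of the 49 members in replicate 3 of N2 on AL divided by the mean of replicates 1 and 2 of that group (vertical log axis), against exon length in nucleotides (horizontal log axis), with 1 point per gene, V-ATPase in blue and autophagy in orange. Of the 11 genes under 1 kb, 8 lie above 1 (lgg-3 at 2.19), and of the 11 over 2.5 kb, 10 lie below it (epg-5 at 0.166).

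Markers of several tissues differed by genotype in the same libraries. Their counts are to be read beside all genes tested, of which 24.9% were called higher and 14.6% lower in the mutant on DR, and 12.7% and 4.72% on AL. On DR, 11 of 14 germ line markers were lower in the mutant, and their summed level was 3023 to 4088 CPM against 6770 to 7248 in N2. On AL, 2 of the 14 were lower (3885 to 5718 CPM against 4367 to 7474). Higher in the mutant on DR were 7 of 11 epidermal markers, 4 of 7 for the excretory canal cell, 6 of 12 for neurons, 4 of 10 for body wall muscle and 6 of the 8 pharyngeal markers tested. Of 12 intestinal markers 5 were higher and 1 was lower, and their sum overlapped between the genotypes on DR, at 2992 to 4458 CPM against 1488 to 4616 in N2. On AL, 8 epidermal, 3 excretory canal, 6 neuronal, 1 muscle, 1 pharyngeal and 5 intestinal markers were higher. By diet no marker of these lists was called with all 12 libraries, and none was at 0 in all of them. In the 11-library fit the germ line count became 14 lower on DR and 11 lower on AL, beside 30% and 13.5% of all genes. Within the mutant, 9 of the 14 were lower on DR than on AL, beside 10.2% of all genes. By diet in N2, that fit also called 2 muscle markers and 1 pharyngeal marker lower, beside 1.51% of all genes. By diet in the mutant it also called 1 muscle and 1 intestinal marker lower and 2 excretory canal markers higher, where 4.9% of all genes were higher. In RNA from whole animals, fewer cells of a type and less RNA per cell cannot be told apart. The part of these tissue markers in the genotype results below was not tested.

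Per kb of exon, lgg-1 had the highest mean level of all members, 368.3 CPM per kb over the 12 libraries. It encodes the worm GABARAP-type Atg8 protein. The highest V-ATPase gene was vha-2, a gene for the proteolipid subunit c, at 244.6 CPM per kb. This value is uncertain, since 22.7% of the vha-2 exon bases are shared with a gene on the same strand, R10E11.6, and vha-3 encodes a near-identical protein. The lowest were epg-5 at 2.47 and vha-5 at 4.86 CPM per kb.

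V1 is a ring of subunits A and B, encoded by vha-13 and vha-12, on a stalk of C, D, E, F and G, encoded by vha-11, vha-14, vha-8, vha-9 and vha-10. A pair of genes, vha-15 and vha-18, encodes subunit H, which couples ATP hydrolysis to the pump and silences V1 when it is detached. Of the 21 V-ATPase genes, vha-18 was the only one called in the fit of all 12 libraries, and it was called lower in the mutant on both diets.

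The level of vha-18 (WBGene00018698) was 55.3, 62.4 and 57.2 CPM in N2 on AL, and 51.9, 55.6 and 71.8 in N2 on DR. It was 41.2, 40.1 and 41.4 CPM in the mutant on AL, and 30.02, 27.4 and 30.6 in the mutant on DR. Every mutant library was below every N2 library, and the 3 mutant DR libraries were below the 3 mutant AL libraries. The gene lies on chromosome V at 8411775 to 8413482, minus strand (WBcel235), with 1474 nt of exon, of which 3.87% overlaps a gene on the opposite strand. In the mutant on DR it fell by 1.03 ± 0.15 on the log2 scale (SE, n = 3 per group, edgeR adjusted p = 0.000546), and the call held when any 1 of the 12 libraries was left out (−1.13 to −0.95). On AL it fell by 0.51 ± 0.15 (edgeR adjusted p = 0.0381). That call held in the 11-library fit and was lost when any of the other 11 libraries was left out (−0.53 to −0.44, edgeR adjusted p from 0.0531 to 0.208).

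The other gene for subunit H did not follow it. The level of vha-15 was 55.6, 54.7 and 25.9 CPM in N2 on AL and 55.4, 58.3 and 47.2 in N2 on DR. In the mutant it was 62.2, 62 and 63.7 CPM on AL and 74.5, 69.6 and 71.0 on DR. All mutant libraries lay above all N2 libraries, although the log2 changes of 0.46 ± 0.24 on AL and 0.42 ± 0.24 on DR did not pass (edgeR adjusted p = 0.197 and 0.183). By the 11-library fit, vha-15 was called higher on DR (0.36 ± 0.10, edgeR adjusted p = 0.0048).

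Of the summed level per kb of both H genes, vha-15 took 45.6%, 42.3% and 27.4% in N2 on AL and 47.1%, 46.7% and 35.5% in N2 on DR. In the mutant it took 55.7%, 56.3% and 56.2% on AL and 67.4%, 68.0% and 65.9% on DR. The mutant groups overlapped neither with each other nor with N2. These shares were not tested.

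**Figure D2:**
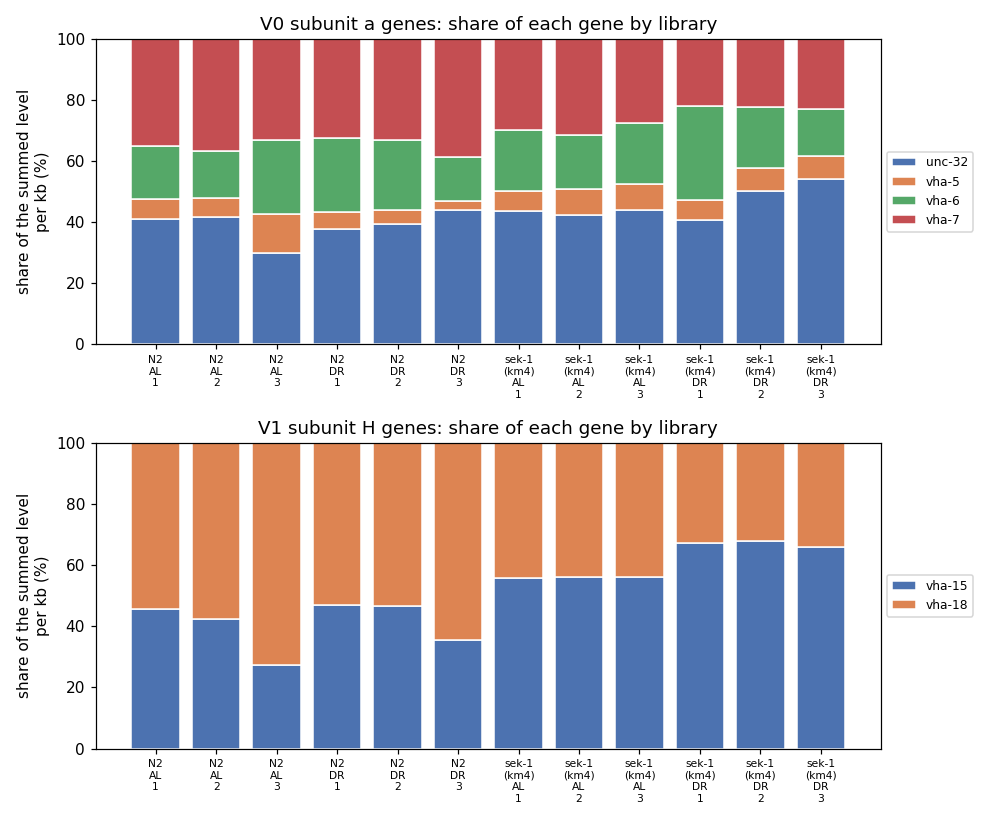
Share of each gene in the summed level per kb of exon (vertical axis, %) in each of the 12 libraries (horizontal axis), for the 4 genes of V0 subunit a (top) and the pair of genes of V1 subunit H (bottom). The vha-15 share is 65.9% to 68.0% in the mutant on DR and at most 47.1% in N2, and the vha-7 share is lowest in the mutant on DR, at 21.9% to 22.9%.

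The genes of the catalytic ring were lower in every mutant DR library than in every N2 DR library, and were not called. The level of vha-13, for subunit A, was 264.0 ± 31.3 CPM in N2 on DR and 165.7 ± 32.05 in the mutant on DR (−0.67 ± 0.28, edgeR adjusted p = 0.0761). The level of vha-12, for subunit B, was 106.8 ± 8.22 and 75.9 ± 15.6 CPM in those groups (−0.49 ± 0.32, edgeR adjusted p = 0.239). With the library that stood apart left out both were called lower in the mutant on DR, at −0.73 ± 0.16 and −0.55 ± 0.16 (edgeR adjusted p = 0.0013 and 0.00675). In that fit vha-13 was also called lower on DR than on AL within the mutant (−0.51 ± 0.16, edgeR adjusted p = 0.0464).

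None of the 5 stalk genes was called with all 12 libraries. The largest genotype difference on DR was that of vha-9, for subunit F (−0.58 ± 0.25, edgeR adjusted p = 0.0804), followed by vha-14 for subunit D (−0.32 ± 0.15) and vha-8 for subunit E (−0.19 ± 0.16). These 3 were called lower in the 11-library fit. The values of vha-11 for subunit C (−0.17 ± 0.33) and vha-10 for subunit G (0.21 ± 0.16) passed in neither fit.

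Within V0, subunit a holds the proton half-channels, and its 4 genes differ in the tissues they serve. In the worm unc-32 is known for the nervous system, vha-5 for the epidermis and the excretory canal, vha-6 for the apical membrane of the intestine, and vha-7 for the epidermis and the uterus. None was called in any of the contrasts with all 12 libraries.

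The level of unc-32 was 130.6, 138.6 and 34 CPM in N2 on AL and 130.9, 127.8 and 113.7 in N2 on DR. It was 119.8, 116.0 and 98.7 CPM in the mutant on AL and 127.3, 119.2 and 108.7 on DR. In replicate 3 of N2 on AL its ratio to replicates 1 and 2 was 0.253, and with that library all groups overlapped. The other N2 AL libraries lay above every mutant library, and in the 11-library fit the genotype difference on AL was −0.27 ± 0.12 (edgeR adjusted p = 0.098). With all 12 libraries the log2 difference between genotypes was 0.14 ± 0.38 on AL and −0.07 ± 0.38 on DR (edgeR adjusted p = 0.843 and 0.899).

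For vha-6 the spread between replicates was as wide as any difference between groups. Its level was 41.2, 38.8 and 20.5 CPM in N2 on AL and 62.6, 55.5 and 27.5 in N2 on DR. In the mutant it was 40.9, 36.4 and 33.7 CPM on AL and 71.6, 35.4 and 23.2 on DR. All 4 groups overlapped, with log2 changes by diet of 0.53 ± 0.41 in N2 and 0.23 ± 0.41 in the mutant (edgeR adjusted p = 0.572 and 0.863).

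The mutant on DR had the lowest mean level of vha-7, with 73.5, 57.2 and 49.6 CPM against 121.8, 116.4 and 107.6 in N2 on DR. In the mutant on AL it was 88.6, 92.7 and 66.2 CPM, and in N2 on AL 120.4, 131.2 and 40.7, the last being the lowest of all 12 libraries. On DR the genotypes did not overlap, and the change of −0.94 ± 0.35 fell just short of the threshold (edgeR adjusted p = 0.0506). In the 11-library fit, vha-7 was called lower in the mutant on DR (−0.996 ± 0.155, edgeR adjusted p = 7.99e-05) and on AL (−0.61 ± 0.17, edgeR adjusted p = 0.0137). In that fit it was also called lower on DR within the mutant (−0.50 ± 0.15, edgeR adjusted p = 0.0422).

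Of the summed level per kb of the 4 subunit a genes, vha-7 took 32.6% to 38.7% in the 6 N2 libraries, 27.4% to 31.5% in the mutant on AL and 21.9% to 22.9% in the mutant on DR. The share of unc-32 was 29.8% to 44.0% in N2, 42.4% to 43.9% in the mutant on AL and 40.8% to 54.03% in the mutant on DR. The smallest share was that of vha-5, at 2.98% to 12.8%. Its level was 15.5 ± 3.08 CPM in N2 on AL, 11.3 ± 4.67 in N2 on DR, 16.4 ± 2.06 in the mutant on AL and 14.4 ± 2.11 in the mutant on DR.

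The rest of V0 is the proteolipid ring and its small partners. The ring genes vha-1, vha-2 and vha-3, for subunit c, and vha-4, for subunit c″, had log2 genotype differences on DR of −0.33 ± 0.16, −0.03 ± 0.15, 0.28 ± 0.15 and 0.00 ± 0.16. Those of vha-16, for subunit d, and vha-17, for subunit e, were 0.21 ± 0.15 and −0.23 ± 0.26. Of these 6 genes, vha-1 was called lower on DR in the 11-library fit (−0.39 ± 0.09, edgeR adjusted p = 0.00199).

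The accessory subunit genes were vha-19, related to mammalian ATP6AP1, and vha-20, related to ATP6AP2, the renin receptor. The level of vha-20 was 32.8 ± 11.3 CPM in N2 on AL, 40.4 ± 5.09 in N2 on DR, 53.3 ± 2.26 in the mutant on AL and 60.7 ± 1.92 in the mutant on DR. The genotypes did not overlap on either diet. Its log2 differences of 0.70 ± 0.23 on AL and 0.59 ± 0.23 on DR lay just past the limit (edgeR adjusted p = 0.0565 and 0.0597), and both were called higher in the 11-library fit (0.44 ± 0.12 and 0.53 ± 0.10). The genotype differences of vha-19 were 0.24 ± 0.23 and 0.12 ± 0.23.

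**Figure D3:**
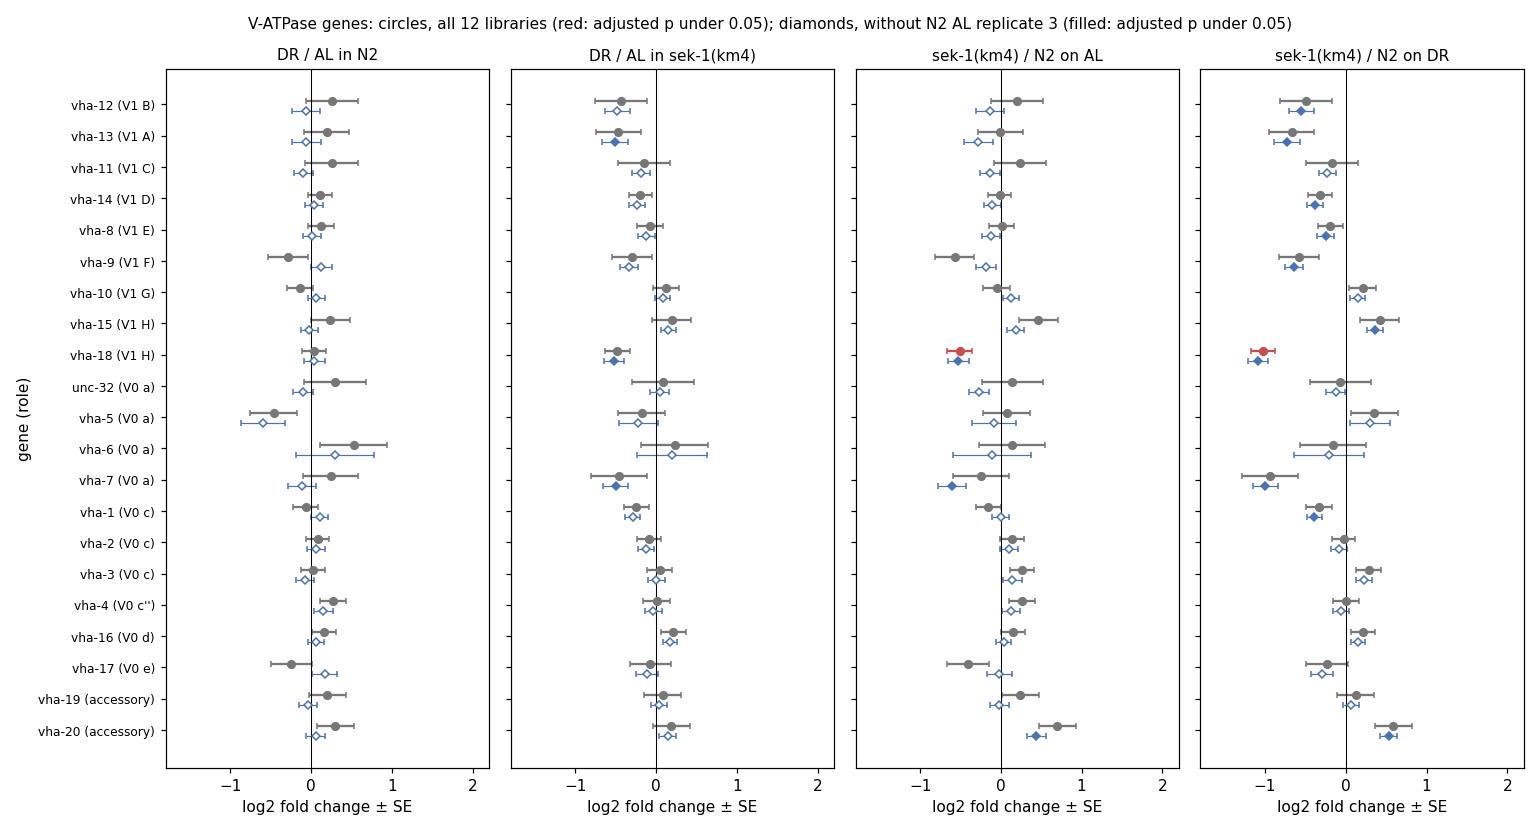
Log2 fold changes (horizontal axis, ± SE) of the 21 V-ATPase genes in the 4 contrasts, with all 12 libraries (circles, red where the edgeR adjusted p was under 0.05) and without replicate 3 of N2 on AL (diamonds, filled where under 0.05). The only red points are those of vha-18 in the genotype contrasts, at −0.51 on AL and −1.03 on DR.

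Counted over the pump, genotype on DR called 0 of 21 genes higher and 1 lower (4.76% of the set), against 39.5% of the 14611 genes tested, 24.9% higher and 14.6% lower. By the 11-library fit the call went to 2 higher and 8 lower, 47.6% of the set against 64.6% of all genes (34.6% higher, 30% lower). The median log2 change of the set was −0.16, against 0.17 for all genes tested, and was negative in every alternative fit, other scalings included. It came near 0 when some single libraries were left out, at −0.02 without mutant DR replicate 3 and −0.05 and −0.06 without N2 DR replicates 1 and 2. Scaling by size factors of DESeq2 brought the median of all genes to 0.07 and that of the pump to −0.27. On AL, genotype called 0 higher and 1 lower, with 17.5% of all genes called (12.7% higher, 4.72% lower). Without that library it called 1 higher and 2 lower, with 36.8% of all genes called (23.3% higher, 13.5% lower). The median on AL was 0.14 with all libraries and −0.08 without it.

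Diet called none of the 21 V-ATPase genes in either genotype with edgeR. In N2 the background was 1.09% of all genes called (0.363% higher, 0.725% lower), and 0 of the 21 had an unadjusted p under 0.05, beside 14% of all genes. The smallest p belonged to vha-4 (0.27 ± 0.17) and vha-5 (−0.46 ± 0.29, edgeR adjusted p = 0.481 and 0.492). In the mutant the background was 0.452% (0.171% higher, 0.281% lower), and 1 of the 21, vha-18, had an unadjusted p under 0.05 (−0.48 ± 0.15, edgeR adjusted p = 0.201), beside 13.4% of all genes. The second was vha-13 (−0.47 ± 0.28, edgeR adjusted p = 0.501). DESeq2 called 0 in N2 and 1 in the mutant, where it called 3.67% and 5% of all genes. Counts of limma with library weights were 0 and 10, beside 7.17% and 43.2% of all genes. With the library that stood apart left out, edgeR called vha-7, vha-13 and vha-18 lower in the mutant on DR, 14.3% of the set against 15.1% of all genes (4.9% higher, 10.2% lower).

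The V1 genes as a group had their lowest summed level in the mutant on DR, 730.5 ± 70.4 CPM, against 931.9 ± 21.5 in N2 on DR and 853.0 ± 51.9 in the mutant on AL. In N2 on AL it was 869.8 ± 137.7, with replicate 3 at 712 CPM, within the range of the mutant on DR (672.1 to 808.7). For the V0 genes the sums were 861.9 ± 72.5, 931.3 ± 20.2 and 886.8 ± 22.6 CPM, and 856.4 ± 120.6 in N2 on AL. A sum of CPM weights long and abundant transcripts most, and these sums were not tested.

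Among autophagy genes, epg-2, sqst-1 and atg-3 were called by genotype on both diets, and lmp-1 and epg-4 on DR. The mutant had more epg-2 and sqst-1, which act on cargo, and more lmp-1, a lysosomal membrane gene. It had less atg-3, an enzyme of Atg8 attachment, and less epg-4, a membrane protein of the endoplasmic reticulum. The autophagy genes follow in the order of the steps.

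The starting complex pairs the kinase of unc-51 (the worm ULK) with atg-13, epg-9 (related to ATG101) and epg-7 (a scaffold related to FIP200). The level of unc-51 was 48.7 ± 3.835 CPM in N2 on AL, 47.3 ± 10.7 in N2 on DR, 55.03 ± 6.71 in the mutant on AL and 66.8 ± 8.17 in the mutant on DR. Its genotype difference on DR was 0.50 ± 0.19 (edgeR adjusted p = 0.0537). The other differences on DR were 0.37 ± 0.14 for epg-9 (edgeR adjusted p = 0.0501), 0.52 ± 0.32 for epg-7 and −0.33 ± 0.16 for atg-13, of whose exon bases 9.04% overlap a gene on the opposite strand. All 4 passed in the 11-library fit, the first 3 higher and atg-13 lower.

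Nucleation rests on a lipid kinase complex of vps-34, bec-1 (Beclin 1) and epg-8 (related to ATG14). The level of vps-34 was 44.0 ± 9.62 and 50.8 ± 1.95 CPM in N2 on AL and DR, and 48.0 ± 2.30 and 59.3 ± 0.805 in the mutant. Those of bec-1 were 38.6 ± 9.245 and 43.1 ± 4.52 CPM in N2, and 39.4 ± 2.68 and 49.8 ± 4.22 in the mutant. For both genes the mutant DR libraries all lay above the mutant AL libraries, with log2 changes of 0.31 ± 0.16 and 0.34 ± 0.19 that did not pass (edgeR adjusted p = 0.452 and 0.46). For epg-8 the change was −0.24 ± 0.19, and its genotype difference on DR (−0.34 ± 0.19) was called lower in the 11-library fit.

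Membrane is supplied by atg-9, a lipid scramblase carried on vesicles, and atg-2, a lipid transfer protein. They work with the phosphoinositide-binding proteins of atg-18 and epg-6 and the endoplasmic reticulum proteins of epg-3 (VMP1) and epg-4 (EI24). The level of atg-9 was 109.9 ± 64.6 CPM in N2 on AL, 122.5 ± 15.1 in N2 on DR, 109.8 ± 20.6 in the mutant on AL and 100.8 ± 11.2 in the mutant on DR. That of atg-18 was 114.7 ± 42.4, 133.9 ± 4.39, 115.4 ± 7.42 and 108.2 ± 3.06 CPM in the same order. Neither was called, and atg-18 was called lower in the mutant on DR in the 11-library fit (−0.37 ± 0.09, edgeR adjusted p = 0.0035).

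The called gene of this step was epg-4 (WBGene00018150; chromosome III, 7182167 to 7184054, plus strand, WBcel235). Its level was 48.9, 57.3 and 53.6 CPM in N2 on AL and 51.2, 57.0 and 81.4 in N2 on DR, against 41.7, 49.4 and 48.9 in the mutant on AL and 41.01, 41.5 and 40.6 on DR. The mutant DR libraries lay closely together below all N2 libraries. On DR it was lower in the mutant than in N2 by 0.62 ± 0.18 on the log2 scale (edgeR adjusted p = 0.0175). On AL the difference of −0.19 ± 0.18 did not pass. The call on DR was lost without N2 DR replicate 3, where epg-4 is highest (−0.48, edgeR adjusted p = 0.0677). It was also lost without mutant DR replicate 2 (−0.69, edgeR adjusted p = 0.0524) or 3 (−0.62, edgeR adjusted p = 0.056). The genotype differences of atg-2, epg-3 and epg-6 on DR were 0.37 ± 0.41, −0.12 ± 0.43 and 0.01 ± 0.13.

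Attachment of Atg8 to lipid runs through the activating enzyme of atg-7, the conjugating enzymes of atg-3 and atg-10, and a scaffold of atg-5, atg-16.1, atg-16.2 and the Atg12 protein of lgg-3. Proteases of atg-4.1 and atg-4.2 process Atg8 and release it again. The level of atg-3 (WBGene00021922; chromosome IV, 1010512 to 1012502, plus strand, WBcel235) was 58.4, 53.1 and 80.4 CPM in N2 on AL and 50.3, 49.5 and 62.4 in N2 on DR. It was 44.7, 41.8 and 41.01 CPM in the mutant on AL and 31.3, 31.9 and 32.7 on DR. Every mutant library was below every N2 library, and mutant DR was below mutant AL.

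Against N2 on the same diet, atg-3 was lower in the mutant by 0.76 ± 0.17 on DR (edgeR adjusted p = 0.00591) and by 0.59 ± 0.17 on AL (edgeR adjusted p = 0.0379). The call on DR held when any 1 library was left out (−0.83 to −0.72). On AL it held in 4 of the 12 such fits, those without an N2 AL library or N2 DR replicate 3, and was lost in the other 8 (edgeR adjusted p from 0.0558 to 0.157). In replicate 3 of N2 on AL the ratio of atg-3 to replicates 1 and 2 was 1.44. Without that library the N2 AL mean was 55.7 CPM in place of 63.9, nearer to the 42.5 of the mutant on AL.

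The activating enzyme gene atg-7 kept to 48.6 to 63.7 CPM in all 12 libraries, with group means of 56.2 ± 6.61 and 62.7 ± 0.955 in N2 on AL and DR and 57.8 ± 3.38 and 60.1 ± 2.155 in the mutant. The lowest autophagy level in CPM was that of atg-10, at 1.74 to 5.10. In N2, atg-16.2 had the second smallest p by diet of the set (0.54 ± 0.21, edgeR adjusted p = 0.288). On DR the remaining genotype differences ran from −0.38 ± 0.27 for lgg-3 and −0.36 ± 0.40 for atg-10 to 0.50 ± 0.30 for atg-16.1, and none was called. In the 11-library fit, atg-5 and lgg-3 were called lower and atg-16.1 higher.

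The Atg8 proteins themselves come from lgg-1 and lgg-2, the latter of the LC3 type. The level of lgg-1 was 191.7, 202.1 and 342.4 CPM in N2 on AL and 198.5, 209.8 and 272.9 in N2 on DR. In the mutant it was 221.9, 210.2 and 322.0 CPM on AL and 264.2, 307.8 and 385.5 on DR. Replicate 3 was the highest library in each group, and all groups overlapped. With 708 nt of exon lgg-1 is short, and short transcripts leaned high in the libraries numbered 3. The part of length in its levels was not tested. The change by genotype on DR was 0.49 ± 0.27 and that by diet in the mutant 0.34 ± 0.27 (edgeR adjusted p = 0.17 and 0.632). By the 11-library fit the genotype change on DR was called (0.43 ± 0.17, edgeR adjusted p = 0.0381). For lgg-2 the means were 88.5 ± 4.46 and 92.7 ± 5.00 CPM in N2 and 85.2 ± 6.22 and 105.7 ± 6.01 in the mutant, and the mutant DR libraries lay above all the others (0.31 ± 0.14 by diet, edgeR adjusted p = 0.344). Per kb, lgg-1 took 76.3% to 84.9% of the summed Atg8 level.

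Of all members, the cargo gene epg-2 had the widest genotype difference. EPG-2 is a nematode coiled-coil protein that, in embryos, brings P granule aggregates to the autophagosome, and SQST-1 is the worm p62, a receptor for ubiquitinated cargo. The level of epg-2 (WBGene00021468; chromosome I, 2300086 to 2302813, plus strand, WBcel235) was 55.4, 52.0 and 34.9 CPM in N2 on AL and 59.2, 50.7 and 37.2 in N2 on DR. It was 98.1, 86.3 and 118.6 CPM in the mutant on AL and 149.5, 161.5 and 157.2 on DR. Every mutant library lay above every N2 library, and mutant DR lay above mutant AL.

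Against N2 on the same diet, epg-2 was higher in the mutant by 1.67 ± 0.23 on the log2 scale on DR (edgeR adjusted p = 0.000303). On AL it was higher by 1.09 ± 0.22 (edgeR adjusted p = 0.00594). Both calls held when any 1 library was left out (1.43 to 1.82 on DR, 0.91 to 1.23 on AL). By diet, the change was 0.04 ± 0.22 in N2 and 0.63 ± 0.22 in the mutant (edgeR adjusted p = 0.924 and 0.238). The interaction was 0.58 ± 0.31 (edgeR adjusted p = 0.579), and in the 11-library fit it was 0.70 ± 0.21 (edgeR adjusted p = 0.191). Of its exon bases 3.42% overlap tpxl-1 on the opposite strand.

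The level of sqst-1 (WBGene00011737; chromosome IV, 12034282 to 12036891, plus strand, WBcel235) was 113.0, 89.5 and 58.0 CPM in N2 on AL and 174.4, 139.3 and 106.1 in N2 on DR. In the mutant it was 152.4, 137.8 and 158.3 CPM on AL and 244.0, 264.9 and 252.7 on DR. The mutant DR libraries lay above all others, and those of N2 on AL lay below all mutant libraries. The N2 diets overlapped between 106.1 and 113.0 CPM.

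Against N2 on the same diet, sqst-1 was higher in the mutant by 0.86 ± 0.25 on DR (edgeR adjusted p = 0.0171) and by 0.78 ± 0.25 on AL (edgeR adjusted p = 0.0481). On DR the call held in 5 of 12 fits with 1 library left out. It was lost without N2 DR replicate 2 or 3, any mutant AL library, or mutant DR replicate 2 or 3 (0.62 to 0.85, edgeR adjusted p from 0.0515 to 0.166). On AL it held without replicate 1 or 3 of N2 on AL and was lost without any of the other 10 libraries (edgeR adjusted p from 0.0578 to 0.173). In replicate 3 of N2 on AL the ratio of sqst-1 to replicates 1 and 2 was 0.573. Without that library the N2 AL mean was 101.2 CPM in place of 86.8, nearer to the 149.5 of the mutant on AL. By diet, sqst-1 had the smallest p of the autophagy genes in both genotypes, with 0.69 ± 0.25 in N2 and 0.76 ± 0.25 in the mutant (edgeR adjusted p = 0.239 and 0.207). With the library that stood apart left out the change in the mutant passed (0.72 ± 0.15, edgeR adjusted p = 0.00848) and that in N2 did not (0.48 ± 0.17, edgeR adjusted p = 0.165). The N2 count of the 28 autophagy genes depended on the fit. Limma with library weights and edgeR without all 4 libraries numbered 3 each called 1 higher by diet in N2. The highest changes of the 28 were 0.55 and 0.63, beside 7.17% and 5.81% of all genes called. In the N2 libraries numbered 1 and 2, sqst-1 was at 113.0 and 89.5 CPM on AL and 174.4 and 139.3 on DR. With all 12 libraries the interaction of sqst-1 was 0.08 ± 0.35 (edgeR adjusted p = 0.951).

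At the last step, epg-5 tethers autophagosomes to late endosomes and lysosomes, and lmp-1 encodes a LAMP-like protein of the lysosomal membrane. The level of lmp-1 (WBGene00003053; chromosome X, 6376459 to 6377684, minus strand, WBcel235) was 99.0, 81.9 and 65.0 CPM in N2 on AL and 87.1, 91.2 and 77.1 in N2 on DR. It was 123.9, 94.8 and 105.1 CPM in the mutant on AL and 125.7, 124.1 and 127.6 on DR. The mutant DR libraries lay above every other library.

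On DR, lmp-1 was higher in the mutant than in N2 by 0.56 ± 0.18 on the log2 scale (edgeR adjusted p = 0.0271). The call held without any 1 library of N2 on AL and was lost without any of the other 9 libraries (0.42 to 0.61, edgeR adjusted p from 0.0703 to 0.2395). It was also lost with size factors of DESeq2 in edgeR (0.46, edgeR adjusted p = 0.0806). On AL the difference was 0.40 ± 0.18 (edgeR adjusted p = 0.142). The long transcript of epg-5 was read at 17.9, 17.95 and 2.97 CPM in N2 on AL and at 17.5 to 22.5 CPM in the other 9 libraries, with a genotype difference on DR of 0.20 ± 0.44 (edgeR adjusted p = 0.738).

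**Figure D4:**
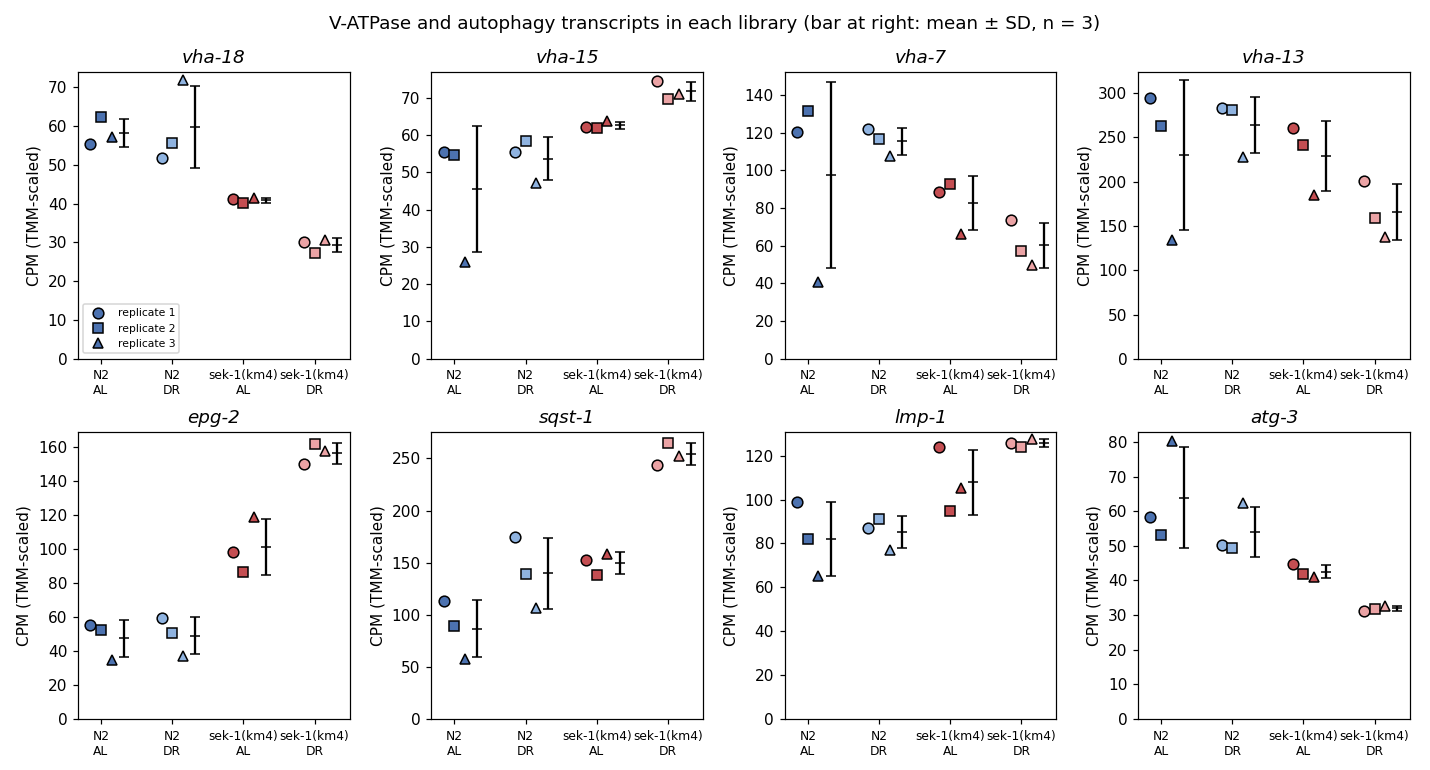
Level in CPM (vertical axes from 0) of 8 members in each library, by group, with symbols for replicates 1 to 3 and a bar for the mean ± SD of 3 libraries. In the mutant on DR, vha-18 (27.4 to 30.6) and atg-3 (31.3 to 32.7) are at their lowest, and epg-2 (149.5 to 161.5) and sqst-1 (244.0 to 264.9) at their highest.

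Over the 28 autophagy genes, genotype on DR called 3 higher and 2 lower, 17.9% of the set against the 39.5% of all genes given above. In the 11-library fit it called 8 higher and 7 lower, 53.6% against 64.6%. The median change was 0.19 beside 0.17 for all genes, and it turned to −0.17 beside −0.06 with offsets for exon length. On AL, genotype called 2 higher and 1 lower with the library and without it, against 17.5% and 36.8% of all genes. The median on AL was 0.04 with it and −0.05 without it.

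By diet, edgeR called none of the 28 in either genotype, where 1.09% of all genes were called in N2 and 0.452% in the mutant. Unadjusted p-values under 0.05 were found for 2 of the 28 in N2 (7.14%) and 5 in the mutant (17.9%), near the 14% and 13.4% of all genes. DESeq2 called 0 in both genotypes, and limma with library weights called 1 and 16, beside the 7.17% and 43.2% of all genes given above. By the 11-library fit, edgeR called 3 higher (epg-2, sqst-1 and atg-2) and 1 lower (atg-3) by diet in the mutant, 14.3% of the set against 15.1% of all genes. In N2 it still called none, with 2.73% of all genes called (1.23% higher, 1.51% lower) and 2 of the 28 with an unadjusted p under 0.05, beside 14.1% of all genes.

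**Figure D5:**
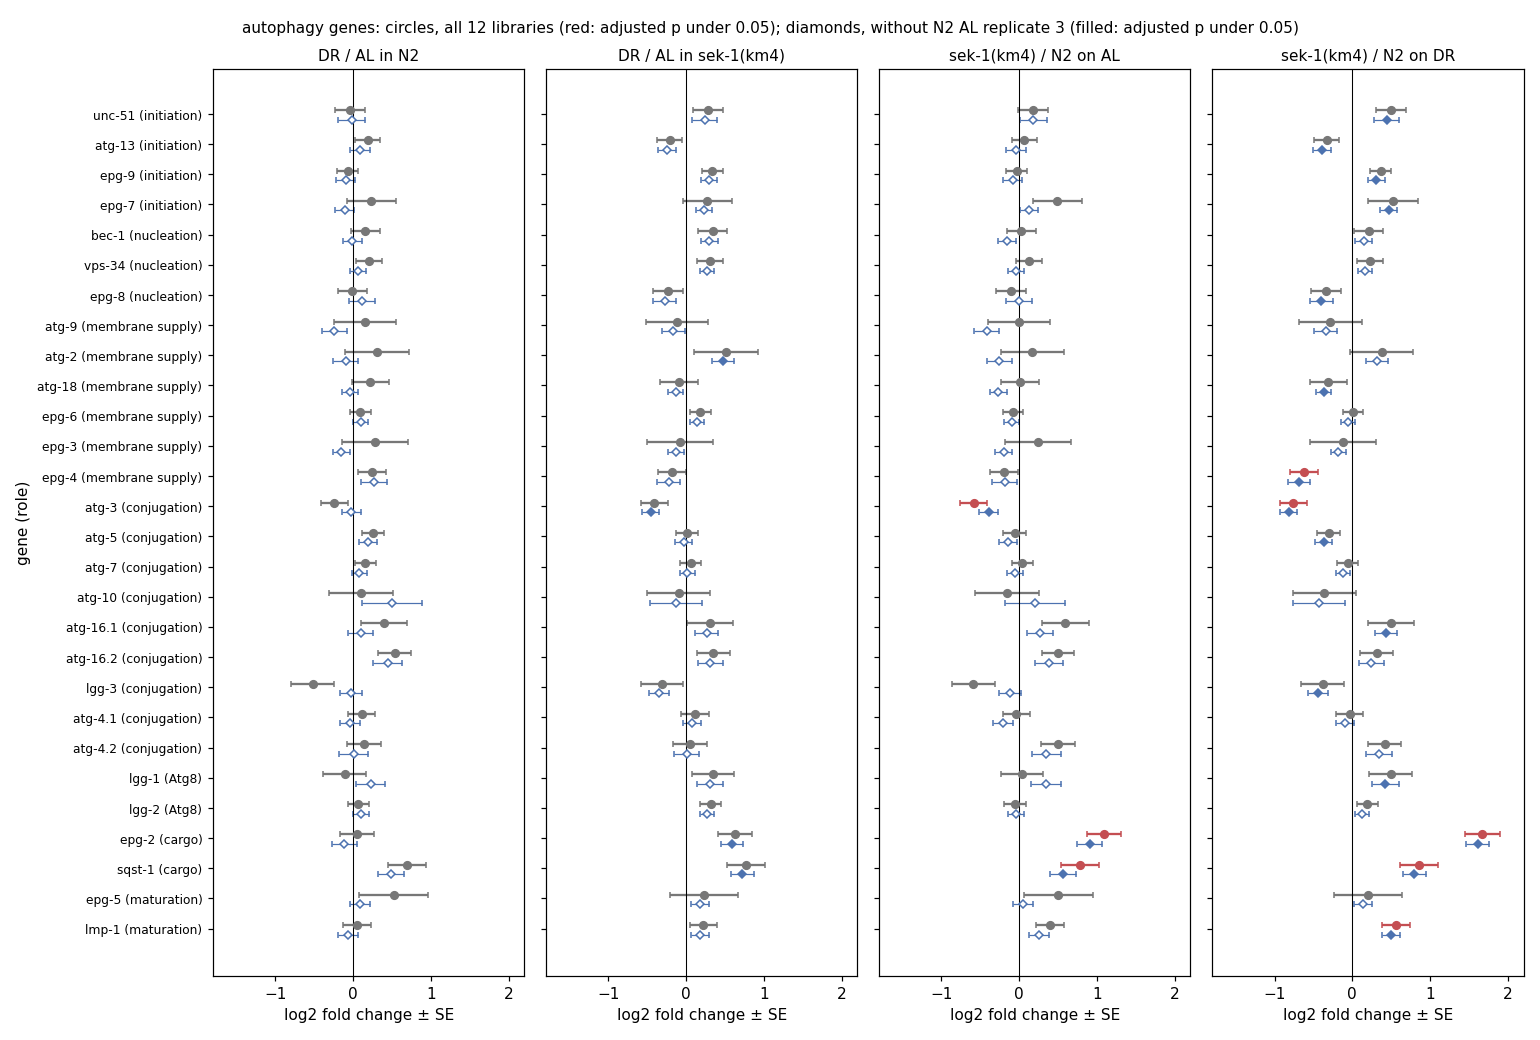
Log2 fold changes (horizontal axis, ± SE) of the 28 autophagy genes in the 4 contrasts, drawn as for the V-ATPase genes: circles for all 12 libraries, red where the edgeR adjusted p was under 0.05, and diamonds without replicate 3 of N2 on AL. Red points are epg-2, sqst-1 and atg-3 in both genotype contrasts, and epg-4 and lmp-1 on DR, where epg-2 reaches 1.67.

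Set side by side, libraries of the mutant on the 2 diets did not overlap for 12 autophagy genes higher on DR and 5 lower, and for 3 and 4 V-ATPase genes. Among all genes tested, 17.5% were higher and 18.8% lower in this way. In N2, 2 autophagy genes (atg-5 and atg-7) and 0 V-ATPase genes were higher without overlap and 0 of either were lower, with 6.82% and 8.84% of all genes. Genotypes on DR did not overlap for 11 higher and 7 lower autophagy genes and for 5 and 8 V-ATPase genes (38.9% and 29.9% of all genes). On AL the counts were 7 and 1, and 3 and 1 (21.9% and 13.8%). The contrasts share libraries, so these counts are not independent of each other.

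The summed autophagy level was 1601 ± 186.6 CPM in N2 on AL (1386 in replicate 3), 1754 ± 21.04 CPM in N2 on DR, 1763 ± 88.2 in the mutant on AL and 2093 ± 47.4 in the mutant on DR. Divided by the V-ATPase sum of the same library, it came to 0.828 to 0.916 in the N2 libraries, 0.873 to 1.00 in the mutant on AL and 1.04 to 1.29 in the mutant on DR. These ratios were not tested. A few abundant genes weigh most in the autophagy sum. From N2 on DR to the mutant on DR, mean levels went from 139.9 to 253.9 CPM for sqst-1, 49.0 to 156.1 for epg-2 and 227.1 to 319.2 for lgg-1. Of the 28 genes, 16 had a positive and 12 a negative genotype change on DR, with a median of 0.19 beside 0.17 for all genes. The germ line markers were also lower in the mutant on DR, where 14.6% of all genes were called lower. A link between these markers and the ratios was not tested.

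The interaction of genotype and diet called 0 of the 49 members and 0% of all genes with edgeR. An unadjusted p under 0.05 was found for 1 V-ATPase gene and 0 autophagy genes, beside 8.91% of all genes. The smallest belonged to vha-18 (−0.52 ± 0.21) and vha-13 (−0.66 ± 0.39) in the pump, and to epg-9 (0.40 ± 0.19) and epg-2 (0.58 ± 0.31) in autophagy, with edgeR adjusted p from 0.55 to 0.609. DESeq2 called 0 members and 0.344% of all genes. Limma with library weights called 2 V-ATPase genes lower and 3 autophagy genes higher, beside 9.4% of all genes. In the 11-library fit 0 of the 49 members were called, beside 0.0876% of all genes (0.0606% higher, 0.0269% lower), and 3 V-ATPase and 6 autophagy genes had an unadjusted p under 0.05, beside 2390 of the 14847 genes tested in that fit. Without all 4 libraries numbered 3, a fit chosen after seeing the data, edgeR called epg-2 (0.73, adjusted p = 0.00735) and atg-2 (0.52, adjusted p = 0.0318) higher, 4.08% of the members beside 3.43% of all genes.

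Other lysosome and autophagy genes were read from 3 lists that hold none of the 49 members. Of 26 genes for lysosomal proteins and endosome fusion, genotype on DR called 1 higher and 8 lower, with a median of −0.35. Over all genes tested that contrast called 39.5% (24.9% higher, 14.6% lower), with a median of 0.17. The total called in this list is near that share, and more of its called genes were lower than higher, the reverse of all genes. By smallest p these were sand-1 (−0.74 ± 0.14), a partner of Rab7 activation, ctns-1 (−0.76 ± 0.16), the cystine transporter of the lysosome, vps-33.1 (−0.91 ± 0.21), of the fusion tether, and arl-8 (−0.63 ± 0.17), a small GTPase that moves lysosomes. Their edgeR adjusted p ran from 0.00238 to 0.0126. On AL and by diet, 0 of the 26 were called. With the library that stood apart left out, the list had 3 higher and 15 lower by genotype on DR, and 2 higher and 7 lower on AL, and by diet 1 higher in N2 and 3 lower in the mutant. That fit called 64.6% of all genes by genotype on DR and 36.8% on AL.

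Of 25 genes for nutrient sensing upstream of the lysosome, genotype on DR called 4 higher and 7 lower. The total is also near the 39.5% of all genes, of which 24.9% were higher and 14.6% lower. Lower were nprl-2 (−0.74 ± 0.14) and nprl-3 (−0.67 ± 0.17), related to the GATOR complex that restrains TORC1. Higher were mdl-1 (1.14 ± 0.29) and mxl-3 (1.35 ± 0.37), basic helix-loop-helix factors, with edgeR adjusted p from 0.00253 to 0.0137 over these 4. On AL the 1 called gene was hlh-30, the worm TFEB, which activates autophagy and lysosome genes. Its level was 37.2 ± 15.1 CPM in N2 on AL, 43.7 ± 8.16 in N2 on DR, 68.6 ± 5.51 in the mutant on AL and 74.7 ± 4.09 in the mutant on DR. It was higher in the mutant than in N2 by 0.88 ± 0.27 on AL and by 0.77 ± 0.27 on DR (edgeR adjusted p = 0.0472 and 0.0413). In replicate 3 of N2 on AL it was read at 20.1 CPM. In the 11-library fit hlh-30 was higher in the mutant than in N2 by 0.58 on AL and by 0.72 on DR (edgeR adjusted p = 0.00807 and 0.00027). By diet, its changes of 0.23 ± 0.27 in N2 and 0.12 ± 0.27 in the mutant did not pass, and no other gene of the list was called by diet. The 11-library fit gave the list 5 higher and 12 lower on DR, 1 higher and 4 lower on AL, and 3 lower by diet in the mutant, beside 64.6%, 36.8% and 15.1% of all genes called.

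Of 12 further genes for cargo and receptors of selective autophagy, genotype on DR called 3 higher and 3 lower, beside 39.5% of all genes. The P granule genes pgl-3 (−1.27 ± 0.20) and pgl-1 (−0.96 ± 0.20) were lower, and both are among the germ line markers too. Their receptor in embryos, sepa-1 (1.28 ± 0.21), and the mitophagy receptor gene dct-1 (1.03 ± 0.21) were higher, with edgeR adjusted p from 0.000877 to 0.00348 over the 4. On AL, sqst-2 (1.30 ± 0.27) and dct-1 (0.73 ± 0.21) were higher and pgl-3 (−0.79 ± 0.20) lower. By diet, 0 of the 12 were called. The counts of the 11-library fit were 5 higher and 6 lower on DR, 2 and 2 on AL, 0 and 1 by diet in N2 and 1 and 2 by diet in the mutant, beside 64.6%, 36.8%, 2.73% and 15.1% of all genes. The level of sqst-2 was low, at 0.655 ± 0.172 CPM in N2 on AL and 1.62 ± 0.227 in the mutant on AL.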

How the data were processed

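The deposited table holds whole-number read counts per gene and library, not normalized, made with featureCounts of Subread per the submitters' processing notes. No aligner, genome build, annotation, strand setting or version is given in the sources used here. Reads were 50 bp single-end from poly(A) RNA, per the labels' protocols. All 12 columns name a sample, 0 do not, and no 2 libraries held identical counts. Counts over short reads can be split between near-identical copies or overlapping genes. Shared exon bases are named above for vha-2, vha-18, atg-13 and epg-2. Other members share some too, such as vha-17 (6.68%), atg-4.1 (6.2%) and vha-19 (5.15%), each with a gene on the opposite strand. The values of vha-3 are uncertain as well, since its protein is near-identical to that of vha-2.

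The test was edgeR 4.0.16 under R 4.3.3, with TMM scaling and filterByExpr (minimum count 10, 14611 genes kept). All 12 libraries entered 1 robust quasi-likelihood fit with a mean per group, so the groups share 1 estimate of the spread, and the call was a Benjamini-Hochberg adjusted p under 0.05 over all genes tested. SE is the absolute log2 fold change over the square root of F. CPM values are TMM-scaled, with mean ± SD of 3 libraries. Exon lengths and positions came from Ensembl 115 (WBcel235), matched by gene ID. A count of 0 allows up to 3 counts, for counting error only. On total counts without TMM scaling, 3 counts are 0.0947 to 0.219 CPM by library.

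The alternatives were DESeq2 1.42.0, its size factors in edgeR, offsets for exon length, no low-count filter, limma 3.58.1 voom with library weights, a replicate block, the 6 compared libraries alone and each library left out in turn. Leaving out all 4 libraries numbered 3 was chosen after seeing the data. Members, gene lists and naming rule were chosen with earlier results of these data known. The rule named fixed key genes of each role, up to 6 called genes per contrast and set by smallest p (the 2 smallest where fewer than 2 were called), the highest and lowest per kb, and up to 4 called genes per further list. Genes named as called in the fit without replicate 3 of N2 on AL (the 11-library fit) were added after their values were seen. The scripts were tested on simulated data.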

Additional observations from a re-analysis of the deposited data

How the results depend on the processing

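The 10 called values of members were refitted under 20 alternatives each. Of these 200 fits 139 kept the call, 61 lost it and 0 changed sign. The calls of vha-18, epg-2 and atg-3 on DR held in all 20. Values of members that were not called have no claimed direction. Of these, 58 changed sign without the libraries numbered 3, 54 without replicate 3 of N2 on AL, 46 with limma library weights and 43 with exon length offsets. That library had a limma weight of 0.0532.

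Counts of called V-ATPase and autophagy genes were most sensitive in the genotype contrast on DR, where edgeR gave 1 and 5. They were 4 and 4 with DESeq2 size factors, 6 and 7 with DESeq2, 6 and 11 with exon length offsets, 14 and 21 with limma library weights, 12 and 15 with the 6 libraries compared, 12 and 19 without the libraries numbered 3, and 1 and 2 without the filter. Over all genes those fits called 39.7%, 45.6%, 54.4%, 74.6%, 64.1%, 63.8% and 14.9% in the same order. Leaving out 1 library gave 1 to 10 and 2 to 15, beside 25.2% to 64.6% of all genes. On AL, with 1 and 3 in edgeR, they were 2 and 3 with DESeq2 or exon length offsets, 3 and 4 with limma, 0 and 1 without the filter, 0 and 0 with the 6 libraries, and 4 and 6 without the libraries numbered 3. All genes called were 27.1%, 31.5%, 47.7%, 7.41%, 8.83% and 44.1%. Leaving out 1 library gave 0 to 3 and 1 to 3, beside 10.1% to 36.8% of all genes.

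By diet in the mutant, with 0 and 0 in edgeR, they were 1 and 0 with DESeq2, 0 and 1 with exon length offsets, 10 and 16 with limma, 1 and 8 with the 6 libraries, and 8 and 13 without the libraries numbered 3, beside 5%, 1.88%, 43.2%, 15.4% and 30.2% of all genes. Leaving out 1 library gave 0 to 3 and 0 to 4, beside 0.0393% to 15.1% of all genes. By diet in N2 limma and the fit without the libraries numbered 3 each called 1 autophagy gene and 0 V-ATPase genes. They called 7.17% and 5.81% of all genes, and leaving out 1 library called 0 members. For the interaction limma called 2 and 3, beside 9.4% of all genes. The fit without the libraries numbered 3 called 0 and 2, beside 3.43%, and leaving out 1 library gave 0. The cause of these shifts was not tested.

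With the replicate number as a block, edgeR called 5 and 8 by genotype on DR, 2 and 3 on AL, and 0 and 0 in the diet contrasts and the interaction. Over all genes that fit called 45.5% by genotype on DR and 20.8% on AL. By diet it called 1.68% in N2 and 1.25% in the mutant, and for the interaction 0.00684%. The main fit does not treat the numbers as a pairing. Over 18 same-numbered pairs the correlation of deviations ran from −0.0715 to 0.388, and 13 were over 0.1. All pairs numbered 1 or 3 were positive (0.117 to 0.388), and those numbered 2 ran from −0.0715 to 0.14. Of 12 libraries, 8 correlated best with their own number. These values are no reason to leave the number out, so the counts with the block are to be read beside the main ones.

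Without replicate 3 of N2 on AL that group is 2 libraries, and the percentages of all genes called are those given beside the members' counts. The lowest member level, 1.74 CPM of atg-10 in replicate 1 of N2 on AL, came from 50 counts, above the 3 counts that a 0 allows.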
